A study of Mus musculus with 3 samples.

Results

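Trimethylation of lysine 4 on histone H3 (H3K4me3) was examined in the most crowded stretches of the mouse genome, as mapped by chromatin immunoprecipitation and sequencing in the adult hippocampus. The regions described are those marked in both libraries, with a mean marked length below 5000 bp, that lie in 1 Mb tiles holding at least 30 marked regions. They number 2198 of 20211 regions in all, or 2198 of the 16691 regions of that length marked in both libraries (13.2%). The choice rests on measured values: the number of regions per tile, their presence in both libraries and their length. These 3 properties are therefore given as descriptions. The ratio of marked length between the libraries and the library in which a region was found alone were not used in the choice. Regions found in 1 library did count towards the 30 per tile.

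One library came from N171-82Q mice, the HD library, and one from their wild-type littermates, the WT library. N171-82Q mice are a model of Huntington's disease carrying a transgene for a short N-terminal piece of mutant huntingtin under a prion protein gene promoter, on top of the animals' own huntingtin genes. All animals were adult male C57/DBA F1 hybrids, the age in weeks is not given in the sources used here, and each immunoprecipitation used whole hippocampi pooled from 3 mice. Each genotype had a single library. Replicate error is therefore unknown, no p-value was computed, and all comparisons below describe this pair of libraries. The WT list held 18515 peaks and the HD list 19631. Sequencing depth is unknown for both, since no read counts were used. The tissue was not checked against marker genes, because no gene was assigned to a peak.

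H3K4me3 is laid down at the start sites of active genes and of many poised ones, most densely at promoters rich in CpG dinucleotides. Mammalian genes are spread unevenly: gene-rich stretches hold many short, broadly used genes with closely set promoters, some of them divergent pairs that share 1 marked stretch, while gene-poor stretches hold long and often tissue-restricted genes. A peak-dense megabase is thus a place where many marked promoters can be compared in 1 chromosomal neighbourhood. Marked regions were defined by joining WT and HD peaks that overlapped by at least 1 bp, and they are called union regions below. A union region counted as shared when it held a peak of both libraries, and its covered length in a library is the summed length of that library's peaks in it.

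Peak-dense tiles were few and held more of the mark than their number. Of 2256 tiles with any union region, 69 (3.06%) reached 30, and these held 2577 union regions, 12.8% of all. The median tile held 7 union regions (quartiles 3 and 12) and the median dense tile 36. The 2577 union regions of the dense tiles comprised the 2198 regions described here, 112 shared regions of 5000 bp or more, 219 found in the HD library only and 48 found in the WT library only. WT peaks covered a median of 8.34% of a dense tile (range 5.88 to 15.6%) and HD peaks 8.52% (5.43 to 15.9%). In the other tiles with a region these medians were 1.43% and 1.34%.

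The most crowded tile lay on chromosome 7 at 52000001 to 53000000 in the mm9 assembly, with 65 union regions. It held 61 WT peaks and 65 HD peaks, covering 149 kb and 153 kb. The smallest gap between neighbouring regions there was 160 bp, the median gap 9.68 kb and the largest 65.1 kb. Of its 65 regions, 58 were shared, 6 were found in the HD library only and 1 in the WT library only. Most marks of this megabase were thus found at the same place in both libraries.

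**Figure D1:**
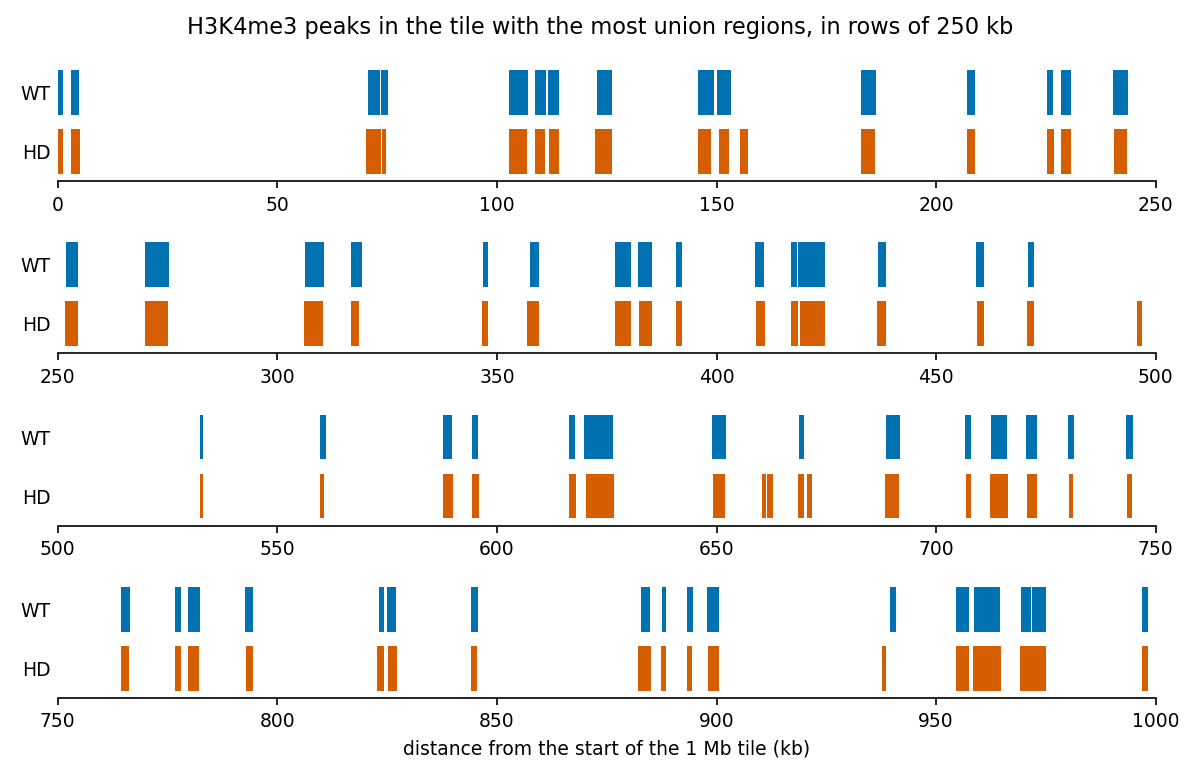
H3K4me3 peaks in the tile with the most union regions, drawn to scale in 4 rows of 250 kb, with the distance from the start of the tile in kb on the horizontal axis; blue bars are WT peaks and orange bars HD peaks. Nearly every WT peak has an HD peak over it, and the 6 regions with an HD peak alone are narrow.

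Neighbouring tiles on chromosome 10 came next. The tile at 80000001 to 81000000 held 62 union regions, covering 151 kb in WT and 152 kb in HD. The tile before it, at 79000001 to 80000000, held 58 regions, covering 156 kb and 159 kb. Together these adjacent megabases held 120 union regions, 100 of them shared and below 5000 bp. In both tiles the HD library covered slightly more in total, over all peaks of the tile. The regions described here went the other way. In the tile at 80000001 their median log2 ratio of HD over WT length was -0.07, with 30 shorter and 19 longer in HD. In the tile at 79000001 it was -0.02, with 28 shorter and 22 longer.

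The other tiles among the 8 most crowded did not all share that direction. On chromosome 19 at 5000001 to 6000000, 51 union regions covered 144 kb in WT and 146 kb in HD. On chromosome 7 at 134000001 to 135000000, 47 regions covered 125 kb in WT and 115 kb in HD, which is 91.6% of the WT length. On chromosome 11 at 69000001 to 70000000, 46 regions covered 132 kb in WT and 129 kb in HD. The totals of these 3 tiles therefore lay on either side of equality. On chromosome 17 at 56000001 to 57000000, 46 regions covered 105 kb in WT and 104 kb in HD. On chromosome 5 at 115000001 to 116000000, 45 regions covered 95.4 kb and 90.9 kb. These last 2 tiles again had less HD than WT length. All these totals include regions found in 1 library and those of 5000 bp or more. Among the regions described here, the median log2 ratio was negative in each of the 8 tiles. It ran from -0.12 in the chromosome 11 tile to -0.02 in the chromosome 10 tile at 79000001.

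More than 1 dense tile often stood in a row. Of the 69 tiles, 37 lay beside another dense tile. The 69 tiles formed 49 stretches, of which 32 were single tiles, 14 were pairs and 3 were runs of 3 tiles. Chromosome 11 held 2 of the runs, at 68000001 to 71000000 and at 100000001 to 103000000, with 109 union regions each, and chromosome 8 the third, at 72000001 to 75000000, with 106. These are the 3 longest stretches and were picked for that. By chromosome, chromosome 11 had 12 dense tiles and 366 of the regions described, 28.8% of its shared regions below 5000 bp. Chromosome 7 followed with 9 tiles and 318 regions (26.3%), and chromosome 17 with 6 tiles and 189 regions (24.9%). Chromosomes 12, 16 and Y had no dense tile, and chromosome 1, with 951 shared regions below 5000 bp, had 1 dense tile with 27 of them.

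Spacing followed from the choice of tiles and is given as a description. The gap from a region described here to the nearest union region had a median of 8.11 kb (quartiles 3.28 and 15.5 kb). In the other tiles the median was 26.8 kb (9.98 and 61.7 kb). A neighbour lay within 1 kb of 179 of the 2198 regions (8.14%), within 2 kb of 359 (16.3%) and within 10 kb of 1277 (58.1%). The matching shares in the other tiles were 4.09% and 6.87%, and 3629 of 14493 regions there had a neighbour within 10 kb. In the dense tiles 98.3% of the regions had a neighbour within 50 kb.

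**Figure D2:**
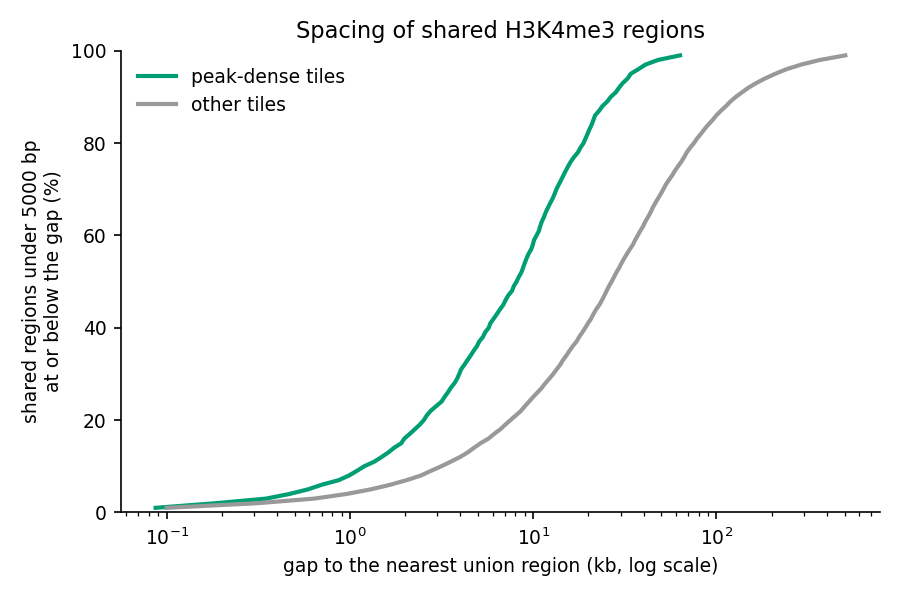
Cumulative share of shared regions under 5000 bp (vertical axis, %) by the gap to the nearest union region (horizontal axis, kb, log scale), from the 1st to the 99th percentile. The curve of the peak-dense tiles reaches the middle at 8.11 kb and that of the other tiles at 26.8 kb. The curves lie closest at the smallest gaps, at 87.0 and 99.9 bp for the 1st percentile.

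The closest neighbours were nearly touching. On chromosome 10 the regions at 80728110 to 80730279 and at 80730295 to 80732489 were 15 bp apart. The first measured 2170 bp in WT and 1296 bp in HD, whose left edge lay 619 bp and whose right edge 255 bp inside the WT edges. The second measured 1919 bp in WT and 2005 bp in HD. Its HD peak began 276 bp farther left than its WT peak and ended 190 bp inside it. The shorter length in HD was thus found in the first of these neighbours and not in the second.

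The next gaps were 16 bp wide. On chromosome 19 the region at 5730394 to 5732442, with a WT length of 1891 bp and an HD length of 2049 bp, followed a region that had 5484 bp in WT against 5676 bp in HD. On chromosome 9 the region at 107566974 to 107570266, of 2979 bp in WT against 3241 bp in HD, stood beside an HD-only region of 1544 bp. In both places the shared region was slightly longer in HD. How many promoters underlie such neighbours was not analysed here.

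The regions were about as long as shared regions elsewhere. The median covered length of the regions was 2298 bp in WT (quartiles 1783 and 2981 bp) and 2191 bp in HD (1701 and 2866 bp). Shared regions below 5000 bp in the other tiles had medians of 2300 bp (1660 and 2974 bp) and 2146 bp (1555 and 2783 bp). The medians thus lay close together, and the lower quartiles were higher in the dense tiles. Across the 69 tiles, the median of the mean covered length ran from 1825 to 2768 bp. In 2165 of the 2198 regions (98.5%) each library had exactly 1 peak. HD had more peaks than WT in 24 and fewer in 6.

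The authors' scores, which rank peaks within a library, were also alike in and outside the dense tiles. Their median was 878 in WT and 1327 in HD in the dense tiles, against 884 and 1351 elsewhere. Scores of the 2 libraries are not on a common scale. A score of 3100 or more was found for HD in 10.4% of the dense-tile regions and for WT in 1.46%, against 12.8% and 2.15% elsewhere. Many of these HD scores were exactly 3100, so the scores do not rank the strongest peaks. Weak peaks were somewhat rarer in the dense tiles: 8.46% of the regions had a WT score below 100 and 3.91% an HD score below 100, against 11.2% and 7.64% in the other tiles. Ratios of length are therefore also given within score classes below.

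In the peak-dense tiles the HD library covered less than the WT library in most shared regions, by a smaller proportion than in sparse tiles. The covered length of HD over WT had a median log2 ratio of -0.07 (quartiles -0.20 and 0.06), that is -4.72%. In the other tiles it was -0.10 (-0.23 and 0.03), or -6.41%, and the difference of the medians was 0.03. HD covered less in 1407 of the 2198 regions, 64.0% (exact 95% binomial interval 62.0 to 66.0%), against 69.6% (68.8 to 70.3%) in the other tiles and 68.9% of all 16691 shared regions below 5000 bp. Such intervals cover counting error over regions, which share 2 libraries and lie in shared neighbourhoods, and say nothing about variation between mice. HD covered more in 787 regions, and 4 were of equal length. The difference between dense and other tiles is small beside the spread of single regions, whose SD was 0.23 in the dense tiles and 0.24 elsewhere.

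The ratio differed by the number of regions in a tile, and not at the limit of 30. In tiles with 1 to 5 union regions the median log2 ratio was -0.12 (n = 2006 regions), and with 6 to 10 it was -0.11 (n = 4168). With 11 to 15 and with 16 to 20 it was -0.09 in each class. In tiles with 21 to 29, 30 to 39 and at least 40 union regions it was -0.07 each. The share of regions with less HD than WT length went down over the same classes, from 74.3% and 72.6% through 67.7%, 67.9% and 65.3% to 64.3% and 63.6%. A lower ratio was thus found in the sparsest tiles, while tiles with 21 to 29 regions had the same median as the dense ones to 2 decimals.

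**Figure D3:**
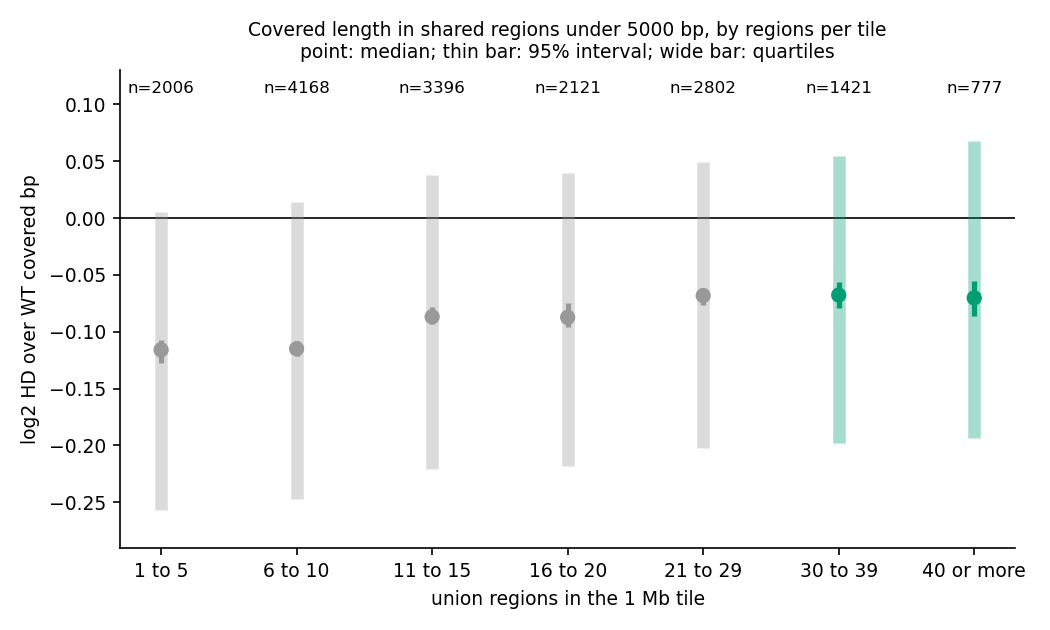
Log2 ratio, HD over WT, of covered length (vertical axis) in shared regions under 5000 bp, by the number of union regions in the 1 Mb tile (horizontal axis); points are medians, thin bars their 95% order-statistic intervals over regions, and wide pale bars the quartiles. Medians lie near -0.12 in tiles with 1 to 5 regions and at -0.07 in the classes from 21 upwards, and the quartiles of neighbouring classes overlap almost wholly.

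Close to the limits the values were as follows. The 5 tiles with 29 union regions held 126 shared regions below 5000 bp with a median log2 ratio of -0.06, and the 7 tiles with 30 held 177 with a median of -0.10. At most 100 bp below the length limit of 5000 bp, 5 regions had a median of -0.12, and within 100 bp above it 5 regions of the same tiles had -0.05. All 112 shared regions of 5000 bp or more in the dense tiles had a median of -0.04.

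Within each class of WT score, HD score and length compared, the median was higher in the dense tiles than in the others. For WT scores below 100 the median log2 ratio was -0.04 in the dense tiles (n = 186) and -0.07 in the others (n = 1622). For scores of 100 to 500 the medians were -0.06 and -0.09, for 500 to 1000 they were -0.07 and -0.09, for 1000 to 2000 they were -0.07 and -0.10, and for 2000 or more -0.08 and -0.10. By mean covered length, regions of 1000 to 2000 bp had -0.08 against -0.10, and regions of 2000 to 3000 bp -0.07 against -0.10. Regions of 3000 to 4000 bp had -0.06 against -0.09, and those of 4000 to 5000 bp -0.05 against -0.08. In the 38 dense-tile regions below 1000 bp it was -0.13, against -0.16. For HD scores below 100 the medians were nearly equal, -0.177 (n = 86) and -0.184 (n = 1107). In that class the share shorter in HD was higher in the dense tiles, 75.6% against 72.8%. In each higher class of HD score that share was lower in the dense tiles. For HD scores of 2000 or more the medians were -0.08 and -0.10.

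By the gap to the nearest union region the picture was the same. Regions with a neighbour within 2 kb had a median log2 ratio of -0.06 in the dense tiles (n = 359) and -0.09 in the others (n = 995). At gaps of 2 to 5 kb the medians were -0.06 and -0.08, at 5 to 10 kb -0.08 in both to 2 decimals, at 10 to 20 kb -0.08 and -0.09, and at 20 kb or more -0.08 and -0.10. The class of 5 to 10 kb differed least. Base composition was not analysed here.

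On single chromosomes the same direction was found in most cases. Among the 15 chromosomes with at least 30 of the regions, the dense-tile median was higher than that of the other tiles on 14 and lower on 1, chromosome 4, with differences (dense minus other) of -0.01 to 0.07. Chromosome 15 had -0.02 in its 143 dense-tile regions against -0.09 elsewhere. On the X chromosome the 31 dense-tile regions, all in 1 tile, had -0.01 against -0.09. Chromosome 11, which holds the most dense tiles, had -0.08 against -0.09.

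Medians of individual dense tiles lay on either side of 0. The median log2 ratio was below 0 in 62 of the 69 tiles and above 0 in 7, with a range of -0.16 to 0.06 and quartiles of -0.10 and -0.04. In the 166 tiles with 20 to 29 union regions it was below 0 in 151 and above 0 in 15, ranging from -0.21 to 0.07. The SD over tiles was 0.05 in both classes. Each dense-tile median rests on only 21 to 53 regions, and single regions had an SD of 0.23. How far the spread of tiles exceeds such counting error was not tested.

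**Figure D4:**
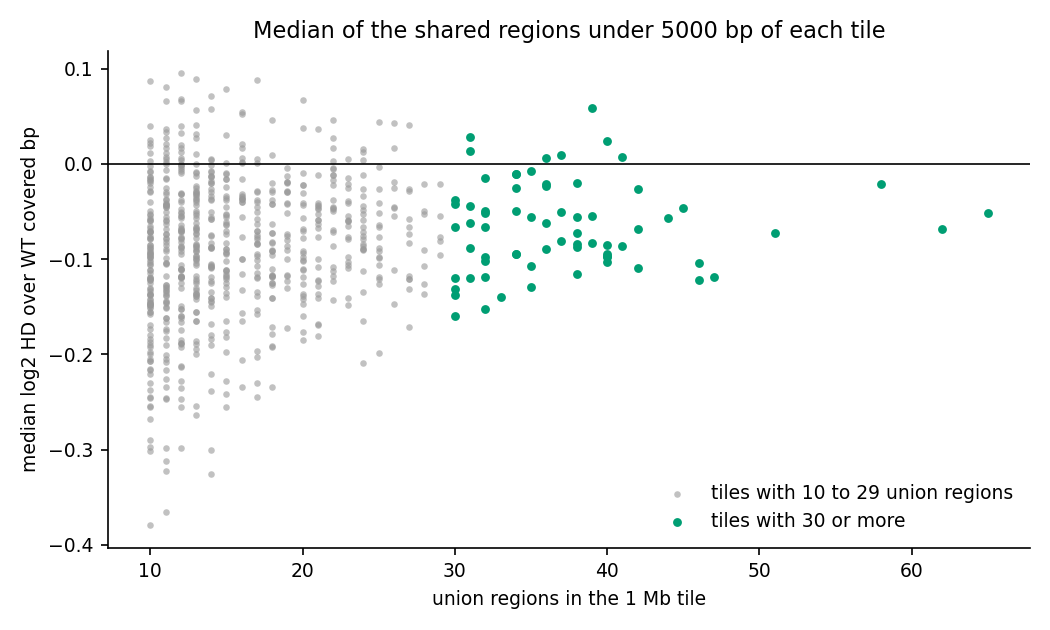
Median log2 ratio, HD over WT, of covered length among the shared regions under 5000 bp of each tile (vertical axis) against the number of union regions in the tile (horizontal axis, tiles with at least 10); green points are the 69 peak-dense tiles and grey points the others. The green points lie between -0.16 and 0.06, and the scatter is wider among tiles with fewer regions.

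The lowest medians were found in a tile of chromosome 13, at 55000001 to 56000000, and in one of chromosome 2, at 118000001 to 119000000. The first, with -0.16, had 17 of 25 regions shorter in HD. The second, with -0.15, had 22 of 29 shorter in HD, and its peaks covered 62.2 kb in WT and 57.0 kb in HD. On chromosome 4 at 133000001 to 134000000 the median was -0.14, with 20 of 26 regions shorter in HD. The total of that tile was 75.6 kb in WT and 76.3 kb in HD. It held 5 HD-only regions and no WT-only region.

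The highest median, 0.06, belonged to chromosome 9 at 107000001 to 108000000. There 18 of 31 regions were longer in HD and 13 shorter, and peaks covered 82.7 kb in WT and 87.7 kb in HD. On chromosome 17 at 25000001 to 26000000 the median was 0.03, with 17 of 26 regions longer in HD. On chromosome 2 at 25000001 to 26000000 it was 0.02, with 19 of 34 longer, and peaks covered 90.2 kb in WT and 99.1 kb in HD. This chromosome 2 tile had 5 HD-only regions and no WT-only region.

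The edges of the peaks showed where the length differed. In the 2165 regions with 1 peak of each library, the left HD edge lay a median of 50 bp inside the left WT edge, and the right HD edge 52 bp inside the right one. In the other tiles these medians were 62 and 66 bp. In the dense tiles the edge facing the nearer neighbour lay inward by a median of 44 bp and the edge facing the farther one by 59 bp, against 63 and 66 bp in the other tiles. Neither HD edge reached beyond its WT counterpart in 40.5% of the dense-tile regions, and neither fell short of it in 16.03%, against 42.9% and 12.7% in the other tiles. One edge inside and the other outside was found in 43.5%.

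Large differences in covered length were uncommon among these regions. HD was more than 1.5-fold shorter in 43 of the 2198 regions (1.96%), where 2.83% of all 16691 shared regions below 5000 bp passed that fold. More than 1.5-fold longer in HD were 21 regions (0.955%), against 0.767% of all. Beyond 2-fold, 4 were shorter, against 0.306% of all, and 1 was longer, against 0.102%. At 1.5-fold the longer share lay near the background and the shorter share somewhat below it. The ratio of shorter to longer regions was 2.05 in the dense tiles and 4.02 in the others, but it was not particular to the dense tiles. Tiles with 20 to 29 union regions had 61 shorter (1.87%) and 33 longer (1.01%) regions. With peaks within 1 kb joined, the dense tiles had 31 shorter regions of 1880 (1.65%), against 3.05% in the other tiles. They then had 26 longer regions (1.38%), against 0.967%. The 43 shorter regions were spread over 29 tiles, with at most 4 in a tile, and the 21 longer ones over 18 tiles, with at most 2. When peaks scoring below 100 were left out of both lists and tiles rebuilt, 20 regions (1.25%) were that much shorter, against 2.63% in the other tiles. That much longer were 16 (0.996%), against 0.461%. Within 10% of equal length were 1112 regions (50.6%), against 46.6% in the other tiles. HD scores below 100 were found in 11 of the 43 shorter regions, and WT scores below 100 in 5 of the 21 longer ones.

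The largest gain was a region of chromosome 9, at 20548815 to 20551213, whose WT peak had 1172 bp and whose HD peak had 2399 bp, a log2 ratio of 1.03. The HD peak reached 802 bp farther on the left and 425 bp farther on the right, and its nearest neighbour, 15.9 kb away, had a ratio of 0.12. On chromosome 7 at 4703303 to 4705164 the WT peak had 1011 bp and the HD peak 1862 bp (0.88), with 844 of the added bases on the left. Both had a WT score below 100, of 99.55 and 62.99. Chromosome 11 had a gain at 102290550 to 102294846, where 1 WT peak of 2425 bp with a score of 2017 faced 2 HD peaks covering 4254 bp (0.81). When peaks scoring below 100 were left out of both lists, that ratio was -0.03.

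Chromosome 10 carried the next gain, at 79620986 to 79624238, from 1861 bp in WT to 3253 bp in HD (0.81). The last 2 were on chromosome 11, at 102806227 to 102808681, where 1420 bp in WT faced 2455 bp in HD (0.79), and at 116766612 to 116768114, where 893 bp faced 1503 bp (0.75). The chromosome 10 region lay 2.66 kb from a neighbour that was longer in HD too, at 0.30. The region at 102806227 had a neighbour 593 bp away, and joining peaks within 1 kb lowered its ratio to 0.44. When peaks scoring below 100 were left out of both lists, the gains at 20548815, 4703303 and 116766612 were no longer shared, and the WT score of the last was 62.64. The nearest neighbours of the 6 gains had log2 ratios between -0.09 and 0.30, so no neighbour showed a gain of like size.

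The largest loss was in the tile of chromosome 10 with 58 union regions, at 79376915 to 79382259. It measured 5345 bp in WT against 2120 bp in HD, a log2 ratio of -1.33. The HD peak began 1377 bp after the WT peak and ended 1848 bp before it. Its nearest neighbour, 1.03 kb away, had 1656 bp in WT and 1901 bp in HD. The HD peak was not weak within its list, with a score of 1924, and the WT peak had 731.

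A loss of -1.04 on chromosome 11 at 98180851 to 98183225, from 2375 bp in WT to 1152 bp in HD, depended on how peaks were joined. An HD-only region of 1242 bp ended 58 bp before it, and with peaks within 1 kb joined the ratio was 0.01. On the same chromosome the region at 98646133 to 98648268 had 2136 bp in WT against 1037 bp in HD (-1.04), and -0.43 when joined with a neighbour 387 bp away. The region at 68963632 to 68965072 had a WT length of 1441 bp and an HD length of 716 bp (-1.01). The last 2 named losses were a region of chromosome 10, at 79804824 to 79806725, from 1843 bp to 938 bp (-0.97), and one of chromosome 3, at 95789022 to 95790688, from 1602 bp to 836 bp (-0.94). In these last 3 and in the region at 98646133 the HD scores were 50.77 to 74.68. When peaks scoring below 100 were left out of both lists, these 4 were no longer shared.

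Regions found in 1 library were divided unevenly in the dense tiles. Of the 2577 union regions there, 48 were found in the WT library only, 1.86% (1.38 to 2.46%), against 5.04% of all union regions and 5.51% (5.17 to 5.85%) in the other tiles. The HD library alone had 219, 8.50% (7.45 to 9.64%), against 9.03% of all and 9.11% (8.69 to 9.54%) in the other tiles. In these libraries the WT-only share was thus lower in dense tiles while the HD-only share lay near the background. More HD-only than WT-only regions were found in 57 of the 69 tiles, fewer in 4 and equal numbers in 8. No WT-only region was found in 33 tiles and no HD-only region in 6. A tile held at most 8 HD-only and 3 WT-only regions.

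The WT-only share went down with each class of density up to 39. It was 7.95% in tiles with 1 to 5 union regions, 6.38% with 6 to 10, 5.11% with 11 to 15, 4.05% with 16 to 20, 3.91% with 21 to 29, and 1.86% with 30 to 39 and with at least 40. The HD-only share had no such order and lay between 7.71% and 10.4%. Counts of HD-only per WT-only region were 0.97, 1.503, 1.79, 2.57, 2.15, 4.55 and 4.59 from the sparsest class to the densest. The total number of union regions chose the tiles, so regions of either library alone counted towards the limit of 30. At least 30 shared regions were held by 50 tiles. With the tiles chosen in that way, the HD-only share was 7.49%, against 9.20% in the other tiles. The WT-only share was then 1.82%, against 5.39%.

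**Figure D5:**
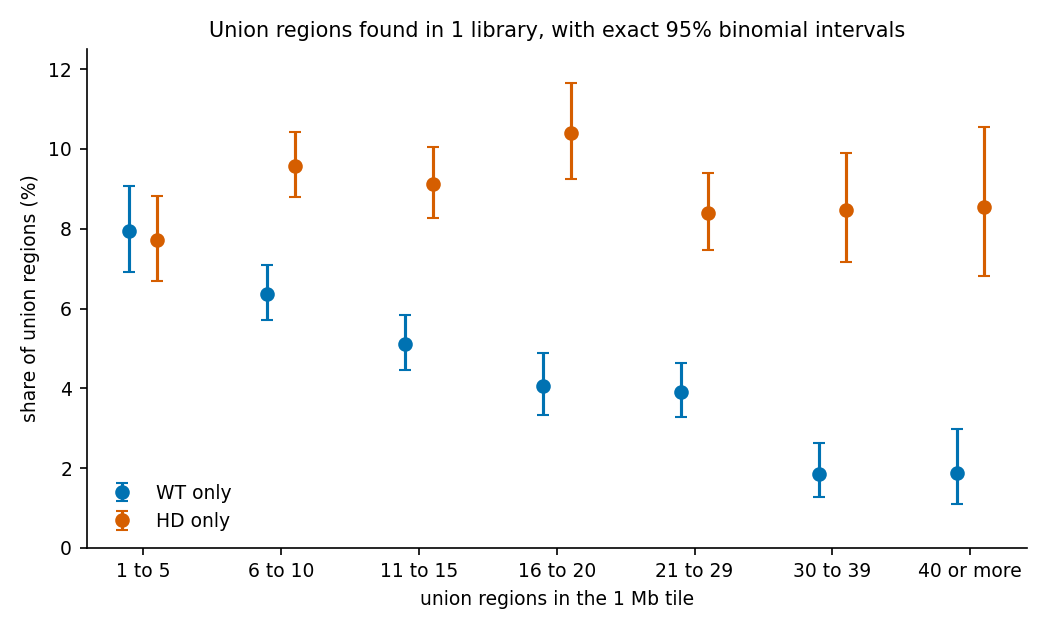
Share of union regions found in 1 library (vertical axis, %) by the number of union regions in the 1 Mb tile (horizontal axis), WT only in blue and HD only in orange, with exact 95% binomial intervals that cover counting error over regions. The blue points go from 7.95% to 1.86% while the orange points stay between 7.71% and 10.4%.

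Among weak WT regions alone the order was similar. Of WT regions with a score below 100, 43 of 229 in the dense tiles had no HD peak, 18.8% (13.9 to 24.4%), against 869 of 2491, 34.9% (33.0 to 36.8%), in the other tiles. Of HD regions with a score below 100, 153 of 239 in the dense tiles had no WT peak, 64.0% (57.6 to 70.1%), against 54.0% (51.9 to 56.0%). By density, this share of weak HD regions was 48.5% in tiles with 1 to 5 union regions. It went up with each class to 64.5% in tiles with 30 to 39, and was 63.1% with at least 40. The depth of either library is unknown, and its part in these shares was not tested.

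Single-library regions were short and weak, in the dense tiles and in the others. The 219 HD-only regions had a median length of 1163 bp and a median score of 76.3, and 66 scored at least 100. The 48 WT-only regions had medians of 1272 bp and 62.4, and 5 scored at least 100. In the other tiles the 1606 HD-only regions had medians of 1022 bp and 68.7, and 309 scored at least 100. The 971 WT-only regions there had medians of 1124 bp and 64.9, and 102 scored at least 100. Of the HD-only regions 27.4% lay within 2 kb of another union region, and of the WT-only regions 35.4%, against 12.8% and 16.2% in the other tiles. The highest scoring HD-only region lay on chromosome 17 at 56256401 to 56257361, with 961 bp and a score of 279.52, 1.65 kb from a shared region with 1237 bp in WT against 1442 bp in HD. Highest among the WT-only regions was that on chromosome 11 at 102972616 to 102974354, with 1739 bp and a score of 133.49, 1.42 kb from a shared region with 4392 bp in WT against 4728 bp in HD.

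Shared and WT-only regions gave less HD than WT length in the dense tiles, and HD-only regions offset most of that sum. WT-only and HD-only regions differ in these directions by definition, and both counted towards the limit of 30 per tile. Totals per tile are thus not independent of the choice of tiles. The 2198 regions together covered 5353 kb in WT and 5127 kb in HD, a difference of -226 kb. Shared regions of 5000 bp or more added -19.5 kb and WT-only regions -63.7 kb, and the HD-only regions added 260 kb. All peaks of the dense tiles thus covered 6127 kb in WT and 6078 kb in HD, 99.2% of the WT length. In the other tiles HD covered 95.1% of the WT length. Shared regions below 5000 bp there covered 34817 kb in WT and 32505 kb in HD, or 93.4%. The remaining regions of the other tiles, not split further by kind, thus raised the HD share there too. HD covered less in total in 37 of the 69 dense tiles (53.6%), in 107 of 166 tiles with 20 to 29 union regions (64.5%) and in 1601 of the 2187 tiles below 30 (73.2%).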

How the data were processed

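Per the labels' protocols, hippocampal chromatin was crosslinked, sonicated and precipitated with an antibody against H3K4me3. Reads were handled with BWA 0.5.9, SAMtools and CASAVA 1.8.2 on build NCBIM37 (mm9), per the submitters' processing notes. The authors deposited 1 peak list per library, with a position and a score per peak; the peak names mention MACS, and its version and settings were not given in the sources used here. Each deposited list has scores between 50.01 and 3233.06, which were used only within that list. Joining, tiling (by the midpoint of a union region) and medians were computed with pandas 2.3.3, numpy 2.4.6 and scipy 1.17.1 under Python 3.11.15, plots with matplotlib 3.10.9, and the code was tested on simulated data. The text names the 8 most crowded tiles, the 3 tiles with the lowest and the 3 with the highest median ratio, the 6 largest gains and losses among regions with a mean of at least 1000 bp, the 4 regions with the smallest gaps and the highest scoring region of each library alone. The regions, lists and limits were chosen with earlier results of these data known. Genes and sequences were not analysed here, since the gene tables used are of GRCm38.p6, another build than mm9; the planned gene lists and cell type markers were therefore left out. The input library was not used here. Coordinates count from 1.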

Additional observations from a re-analysis of the deposited data

How the results depend on the processing

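Of 15 alternatives, 10 were planned and 5 were chosen after seeing the data. The median log2 ratio of the dense-tile regions stayed between -0.071 and -0.067, and its difference from the other tiles between 0.022 and 0.032, under all 15. With tiles of at least 20 union regions there were 235 tiles and 5458 regions, with a median gap of 10346 bp and 11.8% of union regions in 1 library. Over 1.5-fold shorter in HD were 104 regions (1.91%), against 3.28% in the other tiles. That much longer were 54 (0.989%), against 0.659%. With at least 40 there were 20 tiles and 777 regions, with a median gap of 6358 bp and a median length of 2294 bp. There 17 regions were shorter (2.19%, against 2.87% in the other tiles) and 7 longer (0.901%, against 0.760%). Tiles of 500 kb with at least 15 numbered 190 and held 33 longer regions (1.04%, against 0.703% in the other tiles). With peaks within 1 kb joined the median gap was 8815 bp and 8.67% of union regions were found in 1 library. A minimum score of 100 in both lists gave a median length of 2324 bp and 8.53% in 1 library, and equal numbers of top scoring peaks gave 8.95%. With that minimum score 20 regions were shorter (1.25%, against 2.63% in the other tiles). Without an upper length limit the median length was 2293 bp. With both scores at least 100 in unchanged tiles, an added alternative, it was 2331 bp. In that setting 27 regions were shorter (1.35%, against 2.08% in the other tiles). The WT-only share was 0.917 to 3.11% in the dense and 2.53 to 7.58% in the other tiles over the alternatives that give it, lower in the dense tiles under each. The HD-only share was 6.43% in the dense and 5.79% in the other tiles with equal numbers of top scoring peaks, and 7.61% and 7.55% with the minimum score of 100, both the opposite order to that of the lists as deposited. No paired analysis was possible because no genotype has a second library. Unknown depth limits what a missing weak peak can show.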

Other observations

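The ratios of neighbouring regions were compared. Over 1844 pairs of consecutive regions in the same dense tile, Pearson's r between their log2 ratios of HD over WT covered length was 0.06, and 1051 pairs (57.0%) had the same direction. Of the dense-tile regions 64.0% were shorter in HD, so a share above 50% needs no link between neighbours. The pairs come from 2 libraries and share a tile, and a region can belong to 2 pairs. For the 391 pairs less than 5 kb apart r was -0.02, and for the 703 pairs at least 20 kb apart it was 0.09. In the other tiles r was 0.04 over 10595 pairs, of which 6217 (58.7%) had the same direction. Correlations this weak are given as values and not as findings.

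Ratios were also sorted by the kind of the nearest neighbour. Where the nearest union region lay within 2 kb and was found in the HD library only, the median log2 ratio was -0.02 in the dense tiles (n = 44) and -0.03 in the others (n = 140). Beside a shared region of 5000 bp or more within 2 kb it was -0.05 in the dense tiles (n = 18) and -0.21 in the others (n = 45). Of those 45 regions, 13 were more than 1.5-fold shorter in HD, and of the 18 in the dense tiles 0 were. These groups are small, and the difference between them was not tested.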
